A study of Rattus norvegicus with 9 samples.

Results

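The interferon stimulated genes described here are Mx1, Mx2, Ifit2, Ifit3, Isg15, Oas1a, Irf7, Rsad2 and Usp18, chosen by name among the 17156 genes that the pair of deposited count tables list. All 9 were found in both tables and all 9 passed the filter on low counts in each comparison. The reads came from the livers of 9 male Sprague-Dawley rats, 3 per group. The normal control group received saline. The model group received carbon tetrachloride (CCl4), a hepatotoxic solvent that causes liver fibrosis, at 2 ml/kg as a 50% solution in oil 2 times per week for 9 weeks. In the TA group, the same CCl4 schedule was followed by tormentic acid (TA), a triterpenoid from a medicinal herb, for 6 weeks at 3.0 mg/kg. All rats were fasted for 12 h before the livers were taken, no other strain or sex was used, and CCl4 injury in the rat models toxic fibrosis and not a viral infection.

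Interferons are cytokines that cells secrete after sensing foreign or misplaced nucleic acid. Type I and type III interferons bind their receptors and, through the JAK kinases, assemble a complex of STAT proteins and IRF9 that binds the interferon stimulated response element (ISRE) in the promoters of its target genes. In liver, hepatocytes, Kupffer cells and endothelial cells can all express interferon stimulated genes, so that whole tissue RNA does not tell which cells a transcript came from. Fewer cells of a type and less RNA per cell cannot be told apart in such RNA.

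Rat promoter sequences of RefSeq, assembly GRCr8, were available here for 5 of the 9 genes, Ifit3, Irf7, Mx1, Oas1a and Rsad2, as windows from 250 bases before to 50 bases after the gene start. The ISRE core was searched on both strands as the letters GAAA, any 2 bases and GAAA, and it was found in the windows of 4 of these 5 genes, against 3.92% of all 33469 rat promoter windows of that length. The window of Mx1 held no match. The 160 bases before the start are shown for the 4 genes with a match, because they hold the letters searched for. They run 5′ to 3′ on the strand of the gene, with the match in capitals. The windows lie at chr1:241527166-241527325 (plus strand) for Ifit3, chr1:205800024-205800183 (minus strand) for Irf7, chr12:41330306-41330465 (plus strand) for Oas1a and chr6:48788121-48788280 (minus strand) for Rsad2.
Ifit3: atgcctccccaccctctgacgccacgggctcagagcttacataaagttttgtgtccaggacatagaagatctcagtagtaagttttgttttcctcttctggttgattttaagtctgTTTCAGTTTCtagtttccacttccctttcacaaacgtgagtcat
Irf7: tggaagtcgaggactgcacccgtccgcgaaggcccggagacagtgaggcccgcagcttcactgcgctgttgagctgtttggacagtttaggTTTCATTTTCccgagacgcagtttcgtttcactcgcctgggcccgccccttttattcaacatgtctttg
Oas1a: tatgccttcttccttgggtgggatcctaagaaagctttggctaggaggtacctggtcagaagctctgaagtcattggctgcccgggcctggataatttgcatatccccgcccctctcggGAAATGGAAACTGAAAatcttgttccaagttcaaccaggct
Rsad2: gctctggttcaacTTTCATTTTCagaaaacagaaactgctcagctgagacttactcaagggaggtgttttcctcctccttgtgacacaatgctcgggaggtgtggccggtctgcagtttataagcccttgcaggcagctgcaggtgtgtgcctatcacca

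Counted from the gene start, the first base of the match was at -44 in Ifit3, -69 in Irf7 and -147 in Rsad2, where the motif was read on the strand opposite to the gene. Oas1a held 2 overlapping matches on its own strand, starting at -41 and -35. The same motif was found in 20 of 32 other interferon stimulated genes with a window and in 13 of 18 genes of the interferon gamma response. The gamma activated site, searched on both strands as TTC, any 3 bases and GAA, was found in 8.87% of all windows and in that of Oas1a alone among the 5. A match describes these letters only and was not read as a bound site.

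Between 13156735 and 18090405 reads were counted per liver. Levels are given as CPM, the counts of a gene relative to all counts of its library, scaled between livers by the trimmed mean of M values (TMM). Model rat 1 stood apart from the other 8 livers. Its TMM factor was 1.69 against 0.816 to 1.16 in the others, and its 50 most counted genes took 27.9% of the reads against 40.4% to 45.7%. The summed level of 6 stellate cell and myofibroblast markers was 11870 CPM in this liver, against 1110 and 1398 CPM in model rats 2 and 3. The summed level of 8 hepatocyte markers was 26840 CPM against 76430 and 97750 CPM, and none of these markers was at 0 in any group. Results are therefore also given without model rat 1.

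Irf7 encodes the transcription factor that amplifies type I interferon production, and it had the most reads per transcript length of the 9 genes. The normal livers held 24.8, 12.2 and 21.4 CPM of Irf7, the model livers 16.2, 56.3 and 58.4 CPM and the TA livers 71.5, 31.0 and 29.7 CPM. Model rats 2 and 3 lay above all normal livers, whereas model rat 1 lay inside their range, so that these groups overlapped. All 3 TA livers lay above the normal livers.

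Among the effectors that bind viral RNA, Ifit2 encodes a protein that recognizes RNA and restricts its translation. The normal livers held 13.0, 10.4 and 12.3 CPM of Ifit2, the model livers 18.3, 20.4 and 22.1 CPM and the TA livers 25.1, 19.7 and 14.6 CPM. Every model and every TA liver was above every normal liver. The SD was 1.30 CPM in the normal and 1.94 CPM in the model group, and 5.29 CPM in the TA group, whose livers were spread widely. Ifit3, its relative that acts in the same complexes, varied more among the TA livers. For Ifit3 the normal livers held 5.81, 3.09 and 3.95 CPM, the model livers 4.44, 6.32 and 8.42 CPM and the TA livers 14.2, 5.50 and 4.10 CPM. The 3 groups overlapped, and TA rat 1 alone lay above all other livers.

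Mx1 and Mx2 encode dynamin-like GTPases that trap viral components. The normal livers held 7.47, 4.70 and 3.02 CPM of Mx1, the model livers 5.52, 11.5 and 23.4 CPM and the TA livers 19.0, 7.95 and 5.89 CPM. Mx2 showed 26.7, 12.4 and 18.1 CPM in the normal livers, 5.88, 30.2 and 57.1 CPM in the model livers and 53.3, 19.8 and 23.9 CPM in the TA livers. For both genes, model rat 3 and TA rat 1 were the highest livers, and model rat 1 was inside or below the normal range. The near-identical parts of Mx1 and Mx2, of the Oas1 copies and of the Ifit genes may have affected the counting, which the sources used here do not settle.

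Oas1a belongs to the oligoadenylate synthetases, enzymes that make a second messenger after binding double-stranded RNA. Its level was 12.4, 6.50 and 6.30 CPM in the normal livers, 2.96, 5.33 and 13.7 CPM in the model livers and 20.9, 8.46 and 9.33 CPM in the TA livers. Oas1a was the gene whose model mean, 7.32 ± 5.61 CPM (SD, n = 3), was below its normal mean, 8.39 ± 3.45 CPM (SD, n = 3). Rsad2, which encodes the radical SAM enzyme viperin, had the lowest level per transcript length. Its normal livers held 2.74, 2.32 and 1.76 CPM, its model livers 3.19, 3.75 and 5.87 CPM and its TA livers 5.06, 2.79 and 3.13 CPM. All model and all TA livers were above the normal livers for Rsad2, on between 21 and 83 counted reads per liver.

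Isg15 encodes the ubiquitin-like modifier that is conjugated to proteins in the interferon response. It measured 10.6, 7.27 and 14.8 CPM in the normal livers, 5.07, 17.6 and 20.6 CPM in the model livers and 18.4, 10.9 and 11.2 CPM in the TA livers. Usp18 encodes the protease that removes ISG15 and dampens receptor signaling. It measured 9.38, 5.34 and 11.6 CPM in the normal livers, 5.88, 10.8 and 22.1 CPM in the model livers and 25.4, 11.1 and 9.10 CPM in the TA livers. The groups overlapped for both genes in every comparison.

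**Figure D1:**
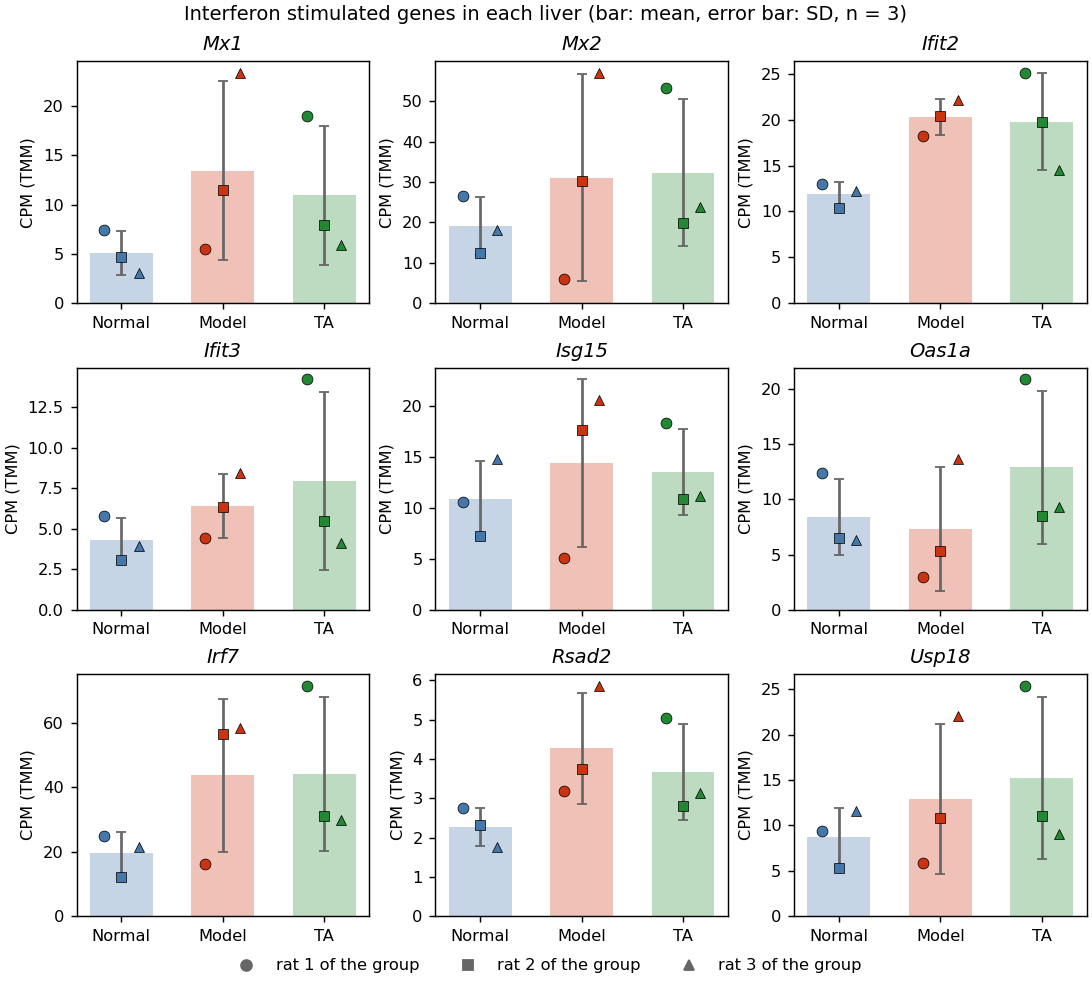
Level of each of the 9 genes (vertical axes, TMM-scaled CPM, each starting at 0) in the normal, model and TA groups. Points are single livers with the rat number as symbol, bars are means and error bars are SD (n = 3). Model rat 1 (circle) is the lowest and model rat 3 (triangle) the highest model liver in all 9 panels, and TA rat 1 (circle) is the highest TA liver in all 9.

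Levels were compared between genes only on the deposited FPKM scale, which divides by transcript length. Irf7 had the highest mean level in each group, 8.25 ± 2.70 FPKM in the normal, 26.0 ± 10.5 FPKM in the model and 21.3 ± 12.8 FPKM in the TA group (SD, n = 3). Isg15, Mx2 and Usp18 held the next places in every group, with mean levels of 4.18 to 6.92 FPKM in the normal livers, 8.69 to 12.8 FPKM in the model livers and 8.30 to 10.5 FPKM in the TA livers. Rsad2 came last in all groups, at 0.522 ± 0.121, 1.45 ± 0.252 and 0.946 ± 0.372 FPKM (SD, n = 3). Neighbors in this order overlapped in their ranges, except Ifit2 above Ifit3 and Mx1 above Rsad2 in the normal livers, Ifit3 above Rsad2 in the model livers and Mx1 above Rsad2 in the TA livers.

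The 9 genes moved together among rats of the same group. The log2 CPM of each liver was set against the mean of its group. Model rat 3 was the highest and model rat 1 the lowest model liver for 9 of the 9 genes, and TA rat 1 was the highest TA liver for 9 of the 9. Over all genes tested, model rat 3 was the highest of its group for 34.0%, model rat 1 the lowest for 41.2% and TA rat 1 the highest for 29.2%. The mean deviation of the 9 genes was -0.91, 0.14 and 0.77 log2 units in model rats 1, 2 and 3 and 0.75, -0.32 and -0.43 log2 units in TA rats 1, 2 and 3. It was smaller in the normal livers, at 0.37, -0.35 and -0.02 log2 units, where rat 1 was the highest for 7 genes and rat 2 the lowest for 6. Mx2 varied most, from -1.86 in model rat 1 to 1.39 in model rat 3, and Ifit2 least within that group, from -0.14 to 0.13.

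**Figure D2:**
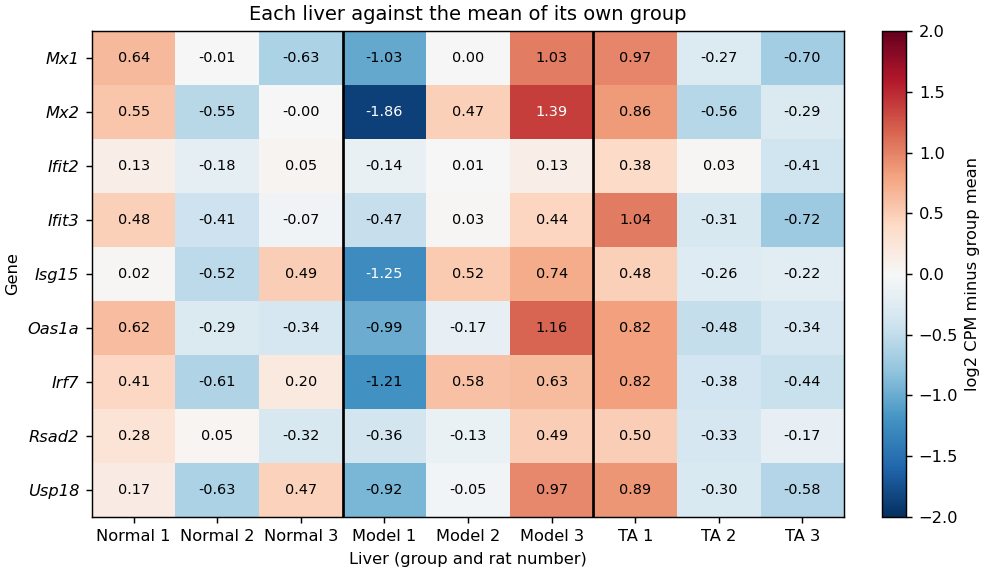
Deviation of each liver (columns, by group and rat number) from the mean of its own group for each of the 9 genes (rows), in log2 CPM, with the color scale from -2 to 2. Model rat 1 is negative in all 9 rows, and model rat 3 and TA rat 1 are positive in all 9.

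Other lists moved with the same livers to different degrees. Of 38 other interferon stimulated genes, 30 were highest in TA rat 1 among the TA livers, against 29.2% of all genes, and 22 were lowest in model rat 1 among the model livers, against 41.2%. Of the same 38, 17 were highest in model rat 3, against 34.0% of all genes, and 11 were highest in model rat 1, against 41.1%. Macrophage markers were also highest in TA rat 1 for 6 of 7 genes, with a summed level of 656 CPM against 373 and 314 CPM in TA rats 2 and 3. In the model livers, however, the summed macrophage markers were highest in rat 1, at 699 CPM against 217 and 305 CPM, where the 9 genes were lowest. Single macrophage markers went both ways there, with 4 of 7 highest in rat 1, 3 highest in rat 3 and deviations in rat 1 from -1.64 to 2.36 log2 units. Hepatocyte markers followed the 9 genes in the model livers, with mean deviations of -1.27, 0.28 and 0.98 log2 units in rats 1, 2 and 3. In the TA livers these means were 0.09, 0.29 and -0.38 log2 units and in the normal livers 0.13, 0.21 and -0.34 log2 units. Neither order was that of the 9 genes. The mean deviations of 5 dendritic cell markers followed the order of the 9 genes in all 3 groups, at -0.46, -0.10 and 0.56 log2 units in model rats 1, 2 and 3, 0.30, -0.30 and 0.00 log2 units in normal rats 1, 2 and 3 and 0.28, -0.12 and -0.16 log2 units in TA rats 1, 2 and 3. Single dendritic cell markers ran from -1.65 to 1.03 log2 units in model rat 1, where 3 of 5 were lowest and 1 was highest of the group. The summed level of 6 such markers was 48.65, 34.89 and 50.86 CPM in model rats 1, 2 and 3, so that rat 1 was not the lowest. The mean deviations of 10 lymphocyte and NK cell markers were -0.47, 0.16 and 0.31 log2 units in model rats 1, 2 and 3. Their summed level was nevertheless highest in model rat 1, at 111 CPM against 50.4 and 61.1 CPM. Single markers in that liver ran from -1.95 to 2.03 log2 units. None of the macrophage, hepatocyte, dendritic cell or lymphocyte markers was at 0 throughout a group, and their part in the levels of the 9 genes was not tested.

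The genes whose pattern over the 9 livers was most like the mean standardized pattern of the 9 genes were RT1-T24-3, Irf9, Rcan2, Znfx1 and Tbc1d8, in this order. Likeness was measured as the root mean square difference of standardized log2 CPM, which was 0.360 for RT1-T24-3 and 0.440 for Tbc1d8 against a median of 1.24 for 7952 candidate genes. The 9 genes themselves, which enter the mean, lay between 0.278 for Irf7 and 0.620 for Oas1a. RT1-T24-3 belongs to the rat major histocompatibility complex, whose similar genes can share reads, and it rose to 23.2 CPM in model rat 3 and 26.6 CPM in TA rat 1 from 7.53 to 13.9 CPM in the normal livers. Irf9, which encodes the DNA-binding subunit of the STAT complex, was lowest in model rat 1 and highest in TA rat 1 over a narrower range, from 17.5 CPM in model rat 1 to 27.2 CPM in TA rat 1. Among the 50 nearest genes were also Eif2ak2, Herc6, Dhx58, Ciita and Irgm from the lists of the pathway. These likenesses are descriptions over 9 livers.

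Model VS Normal asks how CCl4 injury altered the genes. Of the 9 genes, 8 had a higher fitted level in the model group, with a median log2 fold change of 0.70 against 0.02 for all 12730 genes tested, of which 51.0% were higher. No gene of the 9 passed an adjusted p of 0.05 in edgeR's quasi-likelihood test, which 7.87% of all genes did. Unadjusted p values were under 0.05 for 3 genes, Mx1, Ifit2 and Irf7, against 28.9% of all genes. DESeq2 gave 1 gene with an adjusted p under 0.05, Ifit2, and limma voom with sample weights gave 2, Ifit2 and Irf7. The shares of all genes above are those of edgeR. No share is given for these other fits, so their counts have no background beside them.

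The study's own threshold joins an unadjusted p under 0.05 to a log2 fold change larger than 1 in size. By this threshold of p and fold, Mx1 and Irf7 were called higher, 2 of 9 against 16.6% of all genes called higher. Mx1 had a log2 fold change of 1.41 (SE 0.561, edgeR adjusted p 0.145) and Irf7 of 1.17 (SE 0.491, adjusted p 0.163). Ifit2 had a smaller change and a smaller error, 0.77 (SE 0.222, adjusted p 0.0701), from 11.9 ± 1.30 to 20.3 ± 1.94 CPM (SD, n = 3). Over the alternative analyses the adjusted p ranged from 0.0425 to 0.356 for Mx1, from 0.0124 to 0.373 for Irf7 and from 0.0138 to 0.225 for Ifit2. Rsad2 had a log2 fold change of 0.91 (SE 0.413, adjusted p 0.190). The groups did not overlap for Ifit2 and Rsad2, 2 of 9 genes against 20.8% of all genes that were higher without overlap. In the exact permutation test of 3 livers against 3, both reached the smallest two-sided p that it allows, 0.1. The other 5 genes ranged from -0.20 for Oas1a to 0.70 for Mx2 in log2 fold change, with adjusted p values from 0.358 to 0.841.

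These calls turned on single livers. Without model rat 1, the number of genes called by p and fold was 4 in place of 2, against 12.2% of all genes called higher in place of 16.6%. Irf7 then passed the adjusted threshold (log2 fold change 1.55, adjusted p 0.0224), and the median was 0.90. Without model rat 3 the number called by p and fold was 0, the median was 0.31, and Mx2 and Usp18 moved from 0.70 and 0.56 to -0.10 and -0.09. Without normal rat 2 or normal rat 3 the number called was 0, and without normal rat 1 or model rat 2 it was 1. For these fits and the fit without model rat 3, no share of all genes is given. Their counts therefore cannot be read as particular to the 9 genes. Set singly against the normal mean, the median difference of the 9 genes was -0.19 in model rat 1, 0.73 in model rat 2 and 1.34 in model rat 3 on the log2 scale.

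The scaling between livers also mattered here. With library totals in place of TMM, the median of all genes moved from 0.02 to 0.65 and that of the 9 genes from 0.70 to 1.14, and 9 of 9 genes were higher, since Oas1a turned from -0.20 to 0.27. The excess of the 9 genes over all genes was positive under both scalings.

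TA VS Model asks how treatment after CCl4 altered the genes. The log2 fold changes ran from -0.29 for Mx1 to 0.83 for Oas1a in both directions, with a median of 0.02, against -0.00 for all 12781 genes tested. No gene of the 9 had an adjusted or an unadjusted p under 0.05 in edgeR, and 0% and 15.6% of all genes did. None was called by p and fold, against 12.3% of all genes. A higher fitted level in the TA group was found for 5 of 9 genes and for 49.7% of all genes. DESeq2 and limma voom also gave none with an adjusted p under 0.05. The smallest adjusted p was 0.500, for Oas1a, at 12.9 ± 6.97 CPM in the TA group and 7.32 ± 5.61 CPM in the model group (SD, n = 3). The TA and model livers overlapped for all 9 genes, whereas 23.1% of all genes did not overlap. Irf7 was at 44.0 ± 23.8 CPM in the TA group and 43.6 ± 23.8 CPM in the model group (SD, n = 3), a log2 fold change of 0.02 with an SE of 0.535. The standard errors of the 9 genes ran from 0.262 for Ifit2 to 0.721 for Mx2, so that differences of this size were not detectable with 3 livers per group.

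The direction in TA VS Model depended on a few livers. The median of the 9 genes was -0.40 without TA rat 1 and -0.37 without model rat 1, and 0.39 without model rat 3, where Oas1a was called by p and fold at a log2 fold change of 1.66. TA rat 1 lay 0.92 above the model mean in the median of the 9 genes, and TA rats 2 and 3 lay at -0.17 and -0.34. With library totals, 1 of 9 genes was higher in the TA group in place of 5, while the median of all genes moved to -0.48 and that of the 9 genes to -0.29.

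TA VS Normal compares treated with uninjured rats and shares its livers with the other comparisons. All 9 genes had a higher fitted level in the TA group, against 49.0% of the 12179 genes tested, with a median log2 fold change of 0.74 against -0.01. No gene passed the adjusted p of 0.05 in edgeR, DESeq2 or limma voom, where 0.263% of all genes passed in edgeR. The unadjusted p was under 0.05 for 2 genes, Irf7 and Ifit2, against 9.43% of all genes. Irf7 had a log2 fold change of 1.16 (SE 0.403, adjusted p 0.381) and was the 1 gene called by p and fold, against 4.24% of all genes called higher. Ifit2 had 0.71 (SE 0.255, adjusted p 0.404) and Mx1 1.09 (SE 0.503, adjusted p 0.563). The TA and normal livers did not overlap for 3 of 9 genes, Ifit2, Irf7 and Rsad2, against 9.07% of all genes that were higher without overlap. Side by side, the log2 fold changes in Model VS Normal and TA VS Normal were 1.17 and 1.16 for Irf7, 0.77 and 0.71 for Ifit2, 1.41 and 1.09 for Mx1, 0.91 and 0.66 for Rsad2 and -0.20 and 0.60 for Oas1a.

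Same-numbered normal and TA livers deviated together from their group means, although neither the labels nor the paper state a pairing of these rats. The rat number was therefore fitted as a block only as an alternative, chosen from these same data. With the rat number as a block, 2 genes in place of 1 were called by p and fold, Irf7 at 1.09 (adjusted p 0.0676) and Mx1 at 1.01 (adjusted p 0.0750), and 6 in place of 2 had an unadjusted p under 0.05. Under the same block, 4.74% of all genes were called higher by p and fold and 18.7% had an unadjusted p under 0.05. Over the alternative analyses, the adjusted p ranged from 0.0676 to 0.979 for Irf7 and from 0.0750 to 1.00 for Mx1. Without TA rat 1 the count by p and fold was 0, against 3.13% of all genes called higher, and the median log2 fold change 0.18, with 8 of 9 genes higher. Without normal rat 2 the count was 0, without normal rat 1 it was 2, and without TA rat 3 it was 4. No share of all genes is given for these fits, so these counts cannot be read as particular to the 9 genes. In TA rats 2 and 3 alone, the median difference from the normal mean was 0.40 and 0.30 on the log2 scale, against 1.55 in TA rat 1.

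**Figure D3:**
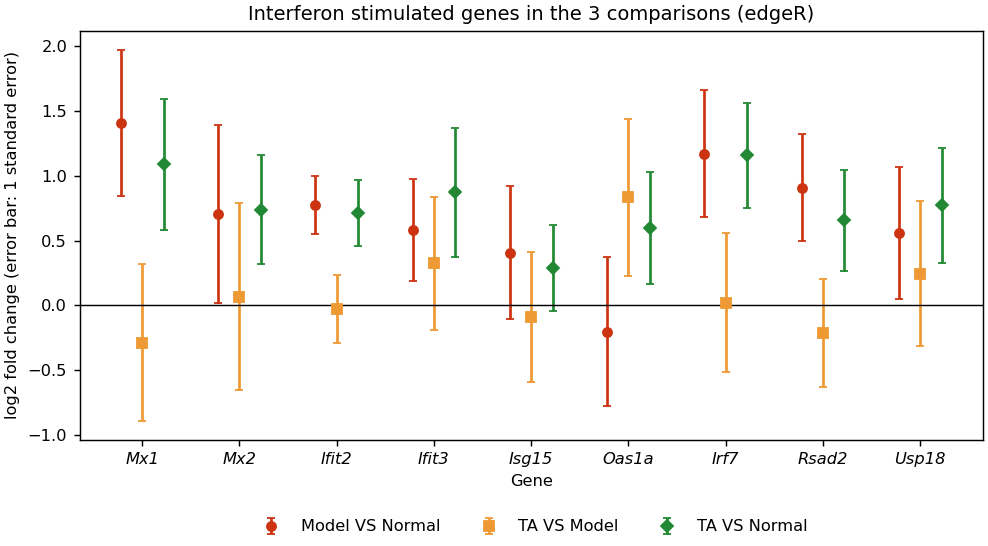
Fitted log2 fold change (vertical axis) of each of the 9 genes in Model VS Normal, TA VS Model and TA VS Normal, with error bars of 1 standard error (edgeR, 3 livers per group). The TA VS Model points lie around 0, from -0.29 to 0.83, and the other comparisons lie above 0 except for Oas1a at -0.20 in Model VS Normal.

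The rest of the pathway was described from lists of genes written by hand. Among interferons and their receptors, 9 of 14 listed genes were in at least 1 table and 6 could be tested. The genes Ifng and Ifna4 were listed only in the table of the normal and model livers, with 2 reads and 1 read in normal rat 1 and 0 in the other 5 livers, which allows up to 3 reads in each of those. Ifnlr1, the ligand-specific chain of the type III interferon receptor, was the receptor with the largest difference. It was at 0.249, 0.258 and 0.336 CPM in the normal livers, 7.54, 4.28 and 2.76 CPM in the model livers and 1.78, 0.846 and 0.895 CPM in the TA livers, and none of these groups overlapped. In Model VS Normal it rose by 4.09 on the log2 scale (SE 0.576, edgeR adjusted p 0.0120), on 3 to 4 reads per normal liver. It was -2.04 in TA VS Model (SE 0.546, adjusted p 0.252, 0.0200 in DESeq2) and 2.01 in TA VS Normal (SE 0.586, adjusted p 0.258). The type I receptor chains Ifnar1 and Ifnar2 had log2 fold changes of 0.65 (adjusted p 0.174) and -0.37 (adjusted p 0.400) in Model VS Normal, and the interferon gamma receptor chain Ifngr1 had 1.07 (adjusted p 0.104). Without model rat 1, Ifnlr1, Ifnar1, Ifnar2 and Ifngr1 had 3.60, 0.41, -0.18 and 0.58 in the same comparison.

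In the JAK-STAT list, 0 of 8 genes passed the adjusted threshold in any comparison, and the 1 gene called by p and fold was Stat2 in Model VS Normal, where 5.55% of all genes were called lower. Stat2, the subunit that brings the activation domain to the complex, was lower in the model group. Its level was 111, 113 and 150 CPM in the normal livers, 40.8, 62.9 and 75.6 CPM in the model livers and 89.3, 90.3 and 93.6 CPM in the TA livers, without overlap between any of the groups. For Model VS Normal the log2 fold change was -1.06 (SE 0.304, edgeR adjusted p 0.0705, 0.00788 in DESeq2), and in TA VS Model 0.61 (SE 0.284, adjusted p 0.338). Without model rat 1, Stat2 had -0.86 in Model VS Normal (edgeR adjusted p 0.0724). By p and fold 0 of the 8 genes were then called, against 3.77% of all genes called lower. Irf9, the partner of Stat2, had a log2 fold change of 0.06 (adjusted p 0.870) in Model VS Normal, with a range over the alternatives of -0.02 to 0.65.

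Of 13 genes for sensing of nucleic acid that could be tested, 1 had an adjusted p under 0.05 in Model VS Normal, a share near the 7.87% of all genes. This was Tmem173, which encodes STING, the adaptor for cytosolic DNA, at 2.66 ± 0.778 CPM in the normal, 9.38 ± 2.70 CPM in the model and 4.35 ± 0.633 CPM in the TA livers (SD, n = 3). It rose by a log2 fold change of 1.83 in Model VS Normal (SE 0.382, adjusted p 0.0327) and had -1.11 in TA VS Model (SE 0.332, adjusted p 0.258). Irf3, the transcription factor that acts downstream of STING, had -1.03 in Model VS Normal (adjusted p 0.184).

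Of 38 other interferon stimulated genes tested, 4 rose in Model VS Normal at an adjusted p under 0.05, against 6.86% of all genes, and 0 fell. Ifitm2, which encodes a membrane protein that blocks viral entry, rose by 2.73 (SE 0.509, adjusted p 0.0253). Lgals3bp, a secreted glycoprotein, rose by 2.45 (SE 0.458, adjusted p 0.0258), and the oligoadenylate synthetase-like genes Oasl and Oasl2 rose by 2.10 (SE 0.368, adjusted p 0.0208) and 1.68 (SE 0.290, adjusted p 0.0198). By p and fold 10 of the 38 were called higher against 16.6% of all genes, and the median of the list was 0.29. Of these 10 genes, 7 were highest in model rat 1, the liver in which the 9 genes were lowest. That liver was the highest model liver for 41.1% of all genes, and its share among all genes called higher is not given. Without that liver, 4 of the 38 still rose at an adjusted p under 0.05, against 5.75% of all genes. By p and fold 10 were then called higher, against 12.2% of all genes. In TA VS Model, 5 of the list were lower by p and fold against 10.2% of all genes, among them Ifitm1, Ifitm2, Ifitm3 and Lgals3bp, and none passed the adjusted threshold in edgeR. Without model rat 1 the count lower by p and fold was 3, against 4.96% of all genes. In TA VS Normal, 4 of 37 were higher by p and fold, against 4.24% of all genes, and 0 without TA rat 1, against 3.13%.

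The interferon gamma response showed 0 of 18 genes past the adjusted threshold and 4 higher by p and fold in Model VS Normal, against 16.6% of all genes, 1 lower in TA VS Model, against 10.2%, and 0 in TA VS Normal. Irf8, a transcription factor of myeloid cells, had a log2 fold change of 0.94 (adjusted p 0.0580), and the guanylate-binding proteins Gbp2 and Gbp4 had 1.35 (adjusted p 0.0888) and 1.49 (SE 0.497, also above the adjusted threshold) in Model VS Normal. DESeq2 gave adjusted p values of 0.00671, 0.0333 and 0.0322 for these genes.

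The 6 list genes with an adjusted p under 0.05 for Model VS Normal, Ifitm2, Oasl, Oasl2, Lgals3bp, Ifnlr1 and Tmem173, kept a positive log2 fold change in all 15 alternatives. Each lost its adjusted call without normal rat 2 or normal rat 3, where the adjusted p was between 0.0888 and 0.144. All except Lgals3bp lost it also without normal rat 1, at 0.0625 to 0.0942, and Oasl and Tmem173 without model rat 2, at 0.0503 and 0.0579.

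**Figure D4:**
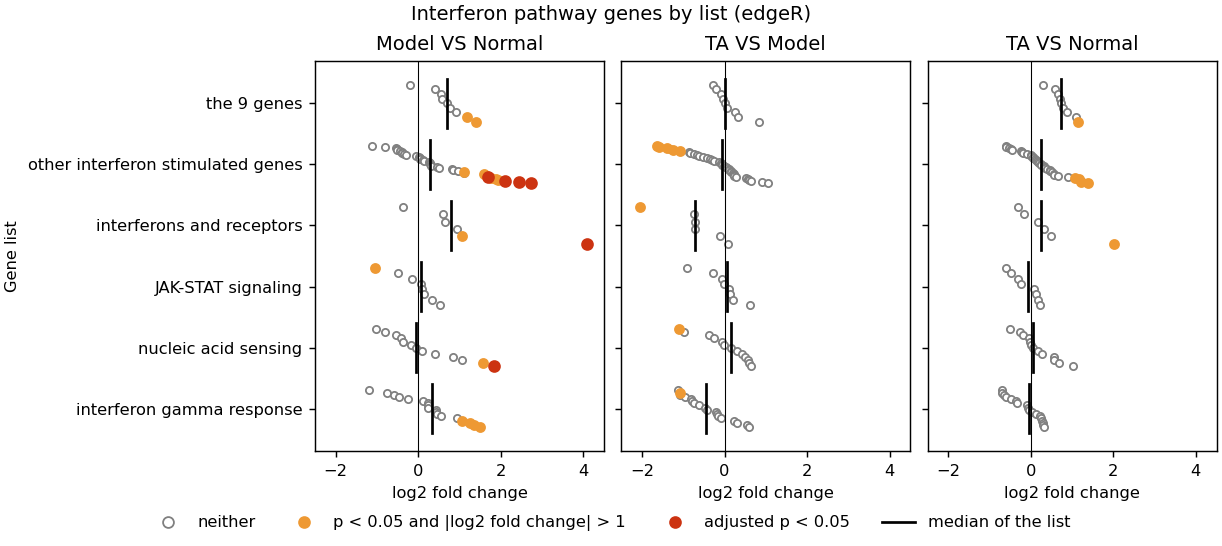
Fitted log2 fold changes (horizontal axes) of the 9 genes and of 5 lists of pathway genes (rows) in the 3 comparisons. Each point is a gene, filled orange where called by p and fold and red at an adjusted p under 0.05, and black lines are list medians. In Model VS Normal 6 points are red, with Ifnlr1 farthest right at 4.09, and in TA VS Model and TA VS Normal none is.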

How the data were processed

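Liver RNA of 9 rats was sequenced as poly(A)-selected, paired-end libraries. After trimming, the authors aligned the reads by STAR, obtained counts per gene from HTSeq-count and deposited these raw counts by gene symbol. The paper names a human genome as the reference, the submitters' processing notes name mm9, and the symbols are written as rat symbols, so no coordinates of the counted genes are given and the build stayed unclear. The authors also deposited FPKM values, which were used for levels between genes, and DESeq2-normalized values, log2 fold changes and p-values, which were not used here. Replicates were the separate livers that the labels number 1 to 3 in each group.

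Here, counts were tested with edgeR 4.0.16 (quasi-likelihood, TMM, filterByExpr, only the livers compared, Benjamini-Hochberg adjustment over all genes tested) in R 4.3.3. TA VS Normal joined the tables on the 16730 genes in both, for which the model counts were the same. The depth of 13156735 to 18090405 reads per liver leaves genes with few reads, such as Rsad2, with the most counting error. Genes were called at an adjusted p under 0.05, or by p and fold, with p under 0.05 before adjustment and a log2 fold change larger than 1 in size. Deviations and likeness used log2 CPM with a prior count of 2. Candidates for likeness had a mean log2 CPM of at least 3. The exact permutation test compared CPM. The fit was tested on simulated data with known changes.

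The same-numbered livers correlated at 0.233, 0.371 and 0.452 in their deviations between TA and normal. The labels give these numbers but state no pairing between groups, so that the main fits were unpaired. The 9 genes, the lists and the tests were chosen with earlier results of these data known. Named from the lists were Stat2, Irf9, Ifnar1, Ifnar2, Ifngr1 and Irf3, and per list the genes with an adjusted p under 0.05 in any comparison or, where none passed, up to 3 with the smallest unadjusted p under 0.05, and also the 5 genes most like the 9. Ifitm1, Ifitm3, Ifng, Ifna4 and the list genes among the 50 most alike were named after their values were seen. A few genes of the lists are not reported here by name. Alternatives were DESeq2 1.42.0, limma 3.58.1 voom with sample quality weights, the newer edgeR form, other scalings and filters, all 9 livers in 1 fit, a block for the rat number, and fits with single livers left out. Markers of lymphocytes, dendritic cells, cholangiocytes, endothelium and pancreas were also measured per liver.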

Additional observations from a re-analysis of the deposited data

How the results depend on the processing

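No log2 fold change of the 9 genes with an unadjusted p under 0.05 changed its sign under any alternative. Over 9 alternatives that kept all livers, 80 of 81 log2 fold changes kept their sign in Model VS Normal, 74 of 81 in TA VS Model and 81 of 81 in TA VS Normal. In Model VS Normal, the number of the 9 genes with an adjusted p under 0.05 was 1 with DESeq2, 2 with limma voom and 3 with library totals, against 0, and ranged from 0 to 1 when single livers were left out. The number called by p and fold was 6 with library totals and 0 with the rat number as a block, against 2, and ranged from 0 to 4 when single livers were left out, with medians from 0.31 to 0.90. The share of all genes called higher by p and fold was 29.4% with library totals and 15.6% with the block, against 16.6%. In TA VS Model, the number called by p and fold was 1 with limma voom, against 0, and ranged from 0 to 1 without single livers, with medians from -0.40 to 0.39. In TA VS Normal, it was 2 with DESeq2, with library totals, without a filter on low counts and with the replicate block, and 3 with limma voom, against 1, and ranged from 0 to 4 without single livers, with medians from 0.18 to 0.98. The share of all genes called higher there was 5.87% with library totals and 4.74% with the block, against 4.24%. In all comparisons, no share of all genes is given for DESeq2, limma voom, the unfiltered fit and most fits without single livers. The counts of the 9 genes under those fits have no background beside them. For the deviations of the model livers, the same-numbered r was 0.210, -0.05 and -0.05 with the normal and 0.213, -0.04 and 0.00 with the TA livers. The block for the rat number changed no adjusted call of the 9 genes. With library totals, 11 of 38 other interferon stimulated genes, 6 of 18 genes of the interferon gamma response, 3 of 13 sensing genes and 2 of 6 interferon receptor genes had an adjusted p under 0.05 in Model VS Normal, against 4, 0, 1 and 1, while the share of all genes higher at that threshold rose from 6.86% to 15.1%. Apart from the library totals, whose construction shifts all genes, the cause of these changes was not tested. The parts of counting error and of the spread between livers in the errors were not separated. The p-values judge a difference between groups against an error that includes the spread between these livers. The alternatives for the pathway lists were chosen after seeing the data.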

Other observations

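Markers of other cells were measured beside the 9 genes. The summed level of 4 cholangiocyte markers was 15.7 to 23.5 CPM in the normal livers, 75.8 to 139 CPM in the model livers and 28.7 to 32.4 CPM in the TA livers. The summed level of 10 lymphocyte and NK cell markers was 27.6 to 39.8 CPM in the normal, 50.4 to 111 CPM in the model and 29.2 to 54.3 CPM in the TA livers, and that of 6 dendritic cell markers was 14.8 to 22.3, 34.9 to 50.9 and 21.8 to 30.8 CPM. The summed levels of both immune lists were higher in all model livers than in all normal livers. Gene by gene, 2 of 9 tested lymphocyte and NK cell markers and 2 of 5 dendritic cell markers were higher without overlap. The share of all genes was 20.8%. The summed level of 4 endothelial markers was 135 to 163, 123.4 to 185 and 144 to 210 CPM in the normal, model and TA livers. Ptprc, the pan-leukocyte marker, was at 19.0 to 29.9, 38.2 to 65.8 and 21.8 to 32.7 CPM. The 3 pancreas markers in the tables summed to 0.269 to 3.07 CPM over the 9 livers, with 1 of them at 0 throughout the normal and the TA group. The part of these cells in the levels of the interferon stimulated genes was not tested.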
